A study of Mus musculus with 6 samples.

Results

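The genes of the major histocompatibility complex (MHC) and of the machinery that loads it with peptide were described in haematopoietic stem cells sorted by the chemokine receptor CCR2. Members were all genes whose symbol in the array's annotation starts with H2-, together with B2m, Tap1, Tap2, Tapbp, Tapbpl, Psmb8, Psmb9, Psmb10, Nlrc5, Cd74, Ciita, Cd1d1 and Erap1. The annotation lists 57 such symbols, and 46 of them had a probe set of their own, out of 22180 genes measured that way. Of the 46, 33 belong to the class I route, 12 to the class II route, and 1, H2-Ke6, is a dehydrogenase gene of the region that encodes no MHC chain. The other 11 symbols share every probe set with another gene and were not analysed as members, only as shared probe sets: H2-D1, H2-Q2, H2-Q6, H2-Q7, H2-Q8, H2-Q9, H2-T3, H2-T9, H2-T18, H2-T22 and Cd74.

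The samples were 6 pools of sorted stem cells from C57BL/6J mice, 3 CCR2-negative and 3 CCR2-positive, each from the marrow of 20 animals. Each pool was hybridised to 1 array after amplification of 5 ng of total RNA, and the design calls the pools of a group biological replicates. The labels read here state no age, no sex and no further surface marker of the sort, and do not say whether pools of opposite CCR2 status share mice. Values are log2 expression from RMA, a method that corrects, equalises and summarises probe signals. A difference below is the mean of the CCR2-positive pools minus the mean of the CCR2-negative pools on this log2 scale, with its standard error (SE). Pool values are always given in the order of replicates 1, 2 and 3. Stem cell markers were in the upper part of the array's range, Kit with a mean of 10.05 in CCR2-negative and 9.73 in CCR2-positive pools. The Ccr2 transcript itself was at 5.64, 6.26 and 5.83 in the CCR2-negative pools and at 6.81, 7.10 and 6.18 in the CCR2-positive pools, so the groups overlapped.

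MHC class I molecules show peptides from inside the cell to CD8 T cells and to natural killer cells, and nearly all nucleated cells carry them. The proteasome cuts the peptides, the TAP transporter moves them into the endoplasmic reticulum, trimming and loading proteins fit them, and the heavy chain reaches the surface with the light chain B2m. Interferons raise the expression of most of this route, partly through the regulator NLRC5. Class II molecules show peptides from endosomes to CD4 T cells, are the mark of B cells, dendritic cells and macrophages, and depend on the regulator CIITA.

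Class I genes were lower in the CCR2-positive pools at the immunoproteasome, at TAP1, at the trimming enzyme ERAP1 and at several heavy chains, by 1.20 to 1.45-fold. The light chain B2m, TAP2 and the regulator Nlrc5 differed by less than their standard errors. No member passed an adjusted p of 0.05 (limma with Benjamini-Hochberg adjustment over all 22180 genes), and the same was true of every other gene on the array. The smallest adjusted p among the members was 0.181, that of Psmb9. At an unadjusted p under 0.05, 11 of the 33 class I members were lower and 1 was higher. Among all genes 6.61% were lower at that p and 5.63% were higher (1467 and 1249 genes). The class I share was thus 33.3% against 6.61% for all genes. All 11 were among the 22 class I members at or above the median level of all genes, and there 11.3% of all genes were lower at that p. Of the 33 members 19 had a difference below 0, against 44.0% of all genes, and of the 22 brighter ones 15 had, against 56.1% of all genes at or above the median level. The median difference of the 33 members was -0.06, and that of all genes was 0.03. For the 22 brighter members it was -0.27, against -0.03 for all genes at or above the median level. In sorted pools, fewer cells that express a gene and less RNA of it per cell cannot be told apart. The count of 11 rested partly on single pools, and leaving a pool out also lowers the precision for every gene. It was 7 without replicate 1 of the CCR2-negative group, where 4.79% of all genes were lower at that p. It was also 7 without replicate 2 of the CCR2-positive group, where 7.11% were. Without replicate 3 of the CCR2-negative or of the CCR2-positive group it was 6, against 5.94% and 5.83% of all genes. A second quantile normalization gave 7, against 5.53% of all genes. Of the 11 genes 4, namely Psmb9, Psmb10, H2-Q5 and H2-T23, kept an unadjusted p under 0.05 (limma) under all 14 alternatives of processing or of pools left out, and the other 7 passed it under 8 to 11 of them.

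**Figure D1:**
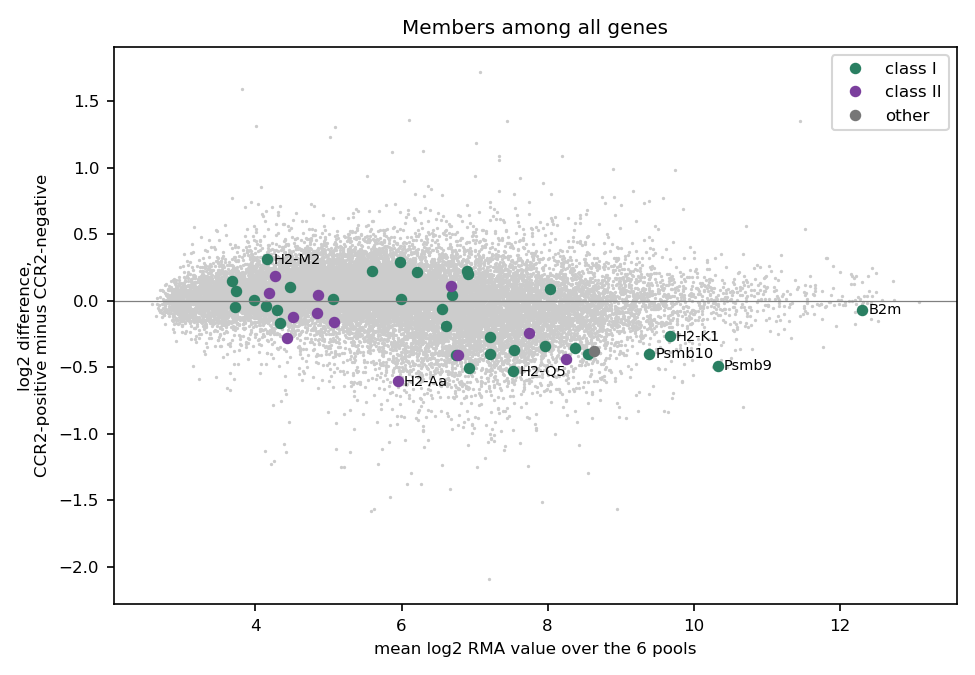
Difference between CCR2-positive and CCR2-negative pools (vertical axis, log2) against the mean log2 value over the 6 pools (horizontal axis), for all 22180 genes in grey and the 46 members in colour. Class I members with a high mean lie mostly below 0, with Psmb9 at -0.49, while B2m lies at -0.07 and most members at the left of the plot lie close to 0, with H2-M2 at 0.31 as an exception.

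The 3 immunoproteasome subunits were lower together. They are the catalytic subunits that interferon induces and that replace their constitutive counterparts in the proteasome, favouring peptides that fit class I molecules. Psmb9 was at 10.51, 10.70 and 10.51 in the CCR2-negative pools and at 10.03, 10.09 and 10.14 in the CCR2-positive pools. Every CCR2-positive pool was below every CCR2-negative pool. The difference was -0.49 ± 0.10 (SE), 1.40-fold, with a 95% interval of -0.73 to -0.25 and an adjusted p of 0.181 (limma). Psmb10 was at 9.69, 9.69 and 9.40 against 9.23, 9.29 and 9.05, and its groups did not overlap either (difference -0.40 ± 0.12, adjusted p = 0.274, limma). Psmb8 was at 8.95, 8.62 and 8.71 against 8.64, 8.33 and 8.10. Here CCR2-positive replicate 1 lay above CCR2-negative replicate 2, so the groups overlapped (difference -0.40 ± 0.16). Among all genes, 7.88% had groups that did not overlap with the CCR2-positive pools lower, and 10.8% with them higher. For class I members the counts were 8 lower and 3 higher of 33. The constitutive counterparts of these subunits, named for this comparison, were Psmb6 with a difference of -0.02 ± 0.14, Psmb7 with 0.03 ± 0.14 and Psmb5 with -0.24 ± 0.15. Their intervals reach from -0.35 to 0.30, from -0.30 to 0.36 and from -0.58 to 0.10. The intervals of Psmb8 and Psmb10 reach from -0.76 to -0.04 and from -0.68 to -0.12. These and the interval of Psmb9 overlap those of the constitutive subunits, and the contrast between induced and constitutive subunits was not tested.

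Of the genes that move and trim peptides, Tap1 and Erap1 were lower and the others were not distinguishable from their spread. Tap1, which encodes one chain of the peptide transporter, was at 8.66, 8.35 and 8.64 in CCR2-negative and 8.30, 8.07 and 8.21 in CCR2-positive pools. The groups stood just apart, by the gap between CCR2-negative replicate 2 and CCR2-positive replicate 1 (difference -0.36 ± 0.12, 1.28-fold, adjusted p = 0.312, limma). Tap2, the other chain, differed by -0.06 ± 0.10, with pools of both groups between 6.50 and 6.63. Erap1, the aminopeptidase that trims peptides in the endoplasmic reticulum, was at 7.68, 7.70 and 7.80 against 7.49, 7.51 and 7.05. The groups did not overlap, and CCR2-positive replicate 3 was the lowest by a wide gap (difference -0.37 ± 0.14, adjusted p = 0.346, limma). Without that pool the difference was -0.22. Tapbpl, a peptide editor related to tapasin, differed by -0.27 ± 0.15 with overlapping groups. Tapbp, which encodes tapasin, the bridge between transporter and heavy chain, differed by 0.09 ± 0.17. Its second probe set gave a larger difference, 0.31, with all CCR2-positive pools above the CCR2-negative ones, so the probe sets of Tapbp disagree in size.

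**Figure D2:**
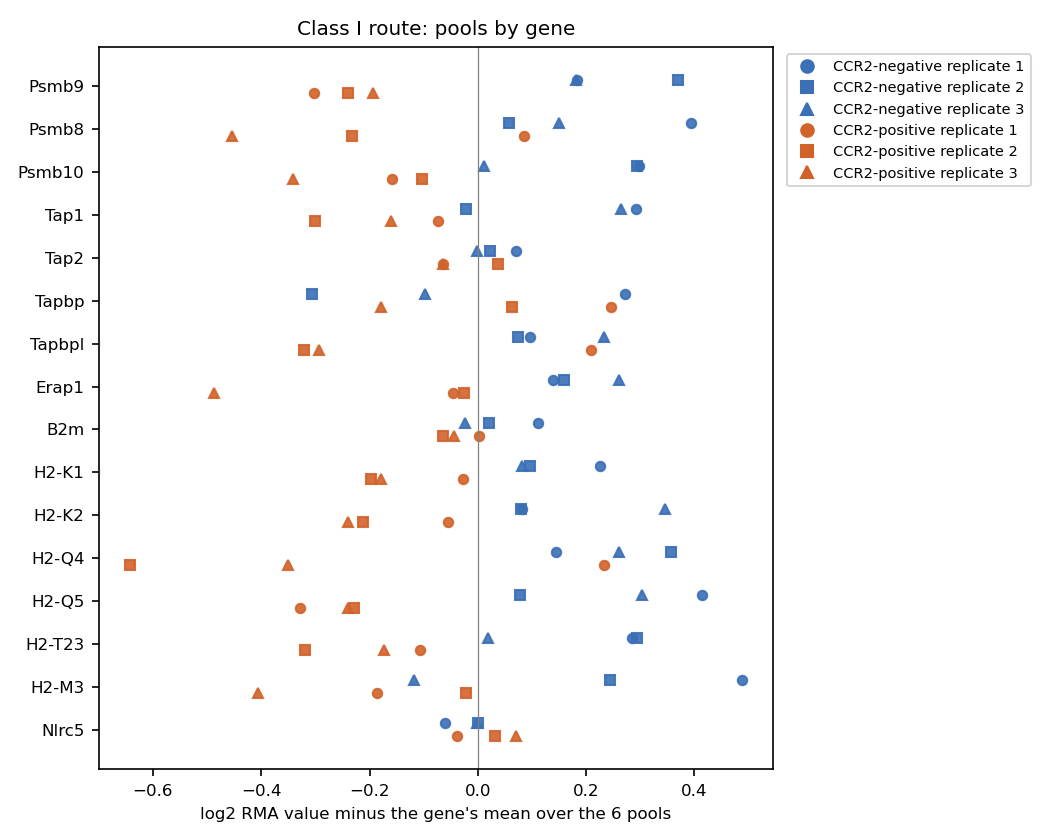
Log2 value of each pool minus the gene's mean over the 6 pools (horizontal axis) for 16 genes of the class I route (rows), with CCR2-negative pools in blue, CCR2-positive pools in orange and 1 marker shape per replicate number. The colours separate at Psmb9, Psmb10, Tap1, Erap1, H2-K1, H2-K2, H2-Q5 and H2-T23, and mix at Tapbp, Tap2, B2m and Nlrc5. The heavy chains shown are the 6 that were lower at an unadjusted p under 0.05 (limma). The 12 of 22 heavy chains that were higher are not shown.

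The light chain B2m, which every class I heavy chain needs at the surface, was at 12.42, 12.33 and 12.29 in the CCR2-negative and 12.31, 12.25 and 12.27 in the CCR2-positive pools. The groups overlapped, and the difference was -0.07 ± 0.10 with an interval of -0.29 to 0.15. Its level was above that of 99.9% of the genes on the array. Nlrc5 was at 6.63, 6.69 and 6.69 against 6.66, 6.73 and 6.76, a difference of 0.04 ± 0.10 with an interval of -0.18 to 0.26. Those groups overlapped too.

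Heavy chains went both ways. H2-K1, the only classical heavy chain measured on its own, was at 9.90, 9.77 and 9.75 in the CCR2-negative pools and 9.64, 9.47 and 9.49 in the CCR2-positive pools. Its groups did not overlap (difference -0.27 ± 0.10, 1.20-fold, adjusted p = 0.357, limma). H2-T23, which encodes Qa-1, the ligand of the NKG2A receptor of natural killer cells, was at 7.50, 7.51 and 7.24 against 7.11, 6.90 and 7.04. The 3 CCR2-positive pools were again the lowest (difference -0.40 ± 0.12, adjusted p = 0.264, limma). H2-Q5, a gene of the Qa region, was at 7.95, 7.61 and 7.84 against 7.20, 7.30 and 7.29. It had the second smallest p of all members (difference -0.53 ± 0.12, 1.45-fold, adjusted p = 0.183, limma), and its other probe set gave -0.54. H2-K2, next to H2-K1, was at 8.05, 8.05 and 8.31 against 7.91, 7.76 and 7.73, a difference of -0.34 ± 0.12. RefSeq lists H2-K2 and H2-Q5 as transcribed pseudogenes, and H2-T10, H2-Bl and H2-Ea likewise. Class I heavy chains are close in sequence, so a probe set may also bind transcripts of other members, and the values of H2-K2 and H2-Q5 in particular are uncertain as to their source.

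H2-Q4, of the Qa region too, was at 7.07, 7.28 and 7.18 against 7.16, 6.28 and 6.57. CCR2-positive replicate 1 lay inside the CCR2-negative range while the other two were far below it, and the second probe set of the gene gave -0.40 beside -0.51 ± 0.20. Without CCR2-positive replicate 2 the difference of H2-Q4 was -0.31. Neither a second quantile normalization nor cyclic loess kept H2-Q4 under an unadjusted p of 0.05. H2-M3, which presents formylated peptides of bacterial or mitochondrial origin, was at 7.23, 6.99 and 6.63 against 6.56, 6.72 and 6.34, with overlapping groups (difference -0.41 ± 0.17, and -0.27 without CCR2-negative replicate 1). In the other direction H2-T24 was at 6.81, 6.74 and 6.83 against 7.20, 6.90 and 6.94, and its groups did not overlap (difference 0.22 ± 0.11, and 0.13 without CCR2-positive replicate 1). H2-M2 was at 3.98, 4.01 and 4.03 against 4.32, 4.21 and 4.42 (difference 0.31 ± 0.10, adjusted p = 0.290, limma), and H2-M5 at 5.54, 5.32 and 5.57 against 5.62, 5.85 and 5.63 (difference 0.22 ± 0.12). The difference of H2-M5 was 0.14 or 0.15 when replicate 2 of the CCR2-negative or of the CCR2-positive group was left out. Both H2-M2 and H2-M5 had groups that did not overlap. H2-M2 lies under the 25th percentile of level, which is 4.66, where the share of signal that is background is unknown.

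The remaining heavy chains did not stand apart. The H2-M10 genes, a family known from sensory neurons of the vomeronasal organ, had 6 measured members with differences from -0.17 to 0.15, and 4 of them lay under the 25th percentile of level. H2-M1, H2-M9 and H2-M11 also lay under it and differed by -0.04, -0.04 and 0.01. H2-Q1 differed by 0.22 ± 0.12 and H2-Bl by 0.10 ± 0.14. Cd1d1, which presents lipids to NKT cells, differed by -0.19 ± 0.14 with overlapping groups. H2-Q10 and H2-T10 had the widest spread, with CCR2-positive SDs of 1.07 and 0.83. H2-Q10, a secreted heavy chain best known from liver, was at 4.90, 6.60 and 6.88 in the CCR2-positive pools on the probe set used, and at 6.14, 5.66 and 5.69 on its other one, so the spread belongs to 1 probe set. Among the 22 heavy chains with an H2- symbol, 6 were lower and 1 higher at an unadjusted p under 0.05, against 6.61% and 5.63% of all genes. Among the 11 partners outside that symbol, 5 were lower and 0 higher at that p. Of the 9 probe sets of either class that list a member beside another gene, 7 were lower in CCR2-positive pools, against 44.0% of all genes. Groups did not overlap for 3 that were lower and 0 that were higher, against 7.88% and 10.8% of all genes. Most of the 9 lay above the median level of all genes, 5.79. At or above that level 56.1% of all genes had a difference below 0, and 12.4% and 7.3% had groups that did not overlap. Among those 3 was the probe set of H2-Oa, of class II, and BC051537 (difference -0.30). A probe set of H2-Q7, H2-Q8 and H2-Q9 was at a mean of 11.08 in CCR2-negative and 10.78 in CCR2-positive pools (difference -0.29). That of H2-Q6 and H2-Q8 was at 9.95 against 9.65 (difference -0.31). Another probe set of H2-Q7, H2-Q8 and H2-Q9 differed by -0.03 with overlapping groups. The probe set of H2-D1 and H2-Q2, at a mean of 6.26 against 6.24, differed by -0.02, and that of Cd74 and Mir5107 by 0.17, both with overlapping groups.

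**Figure D3:**
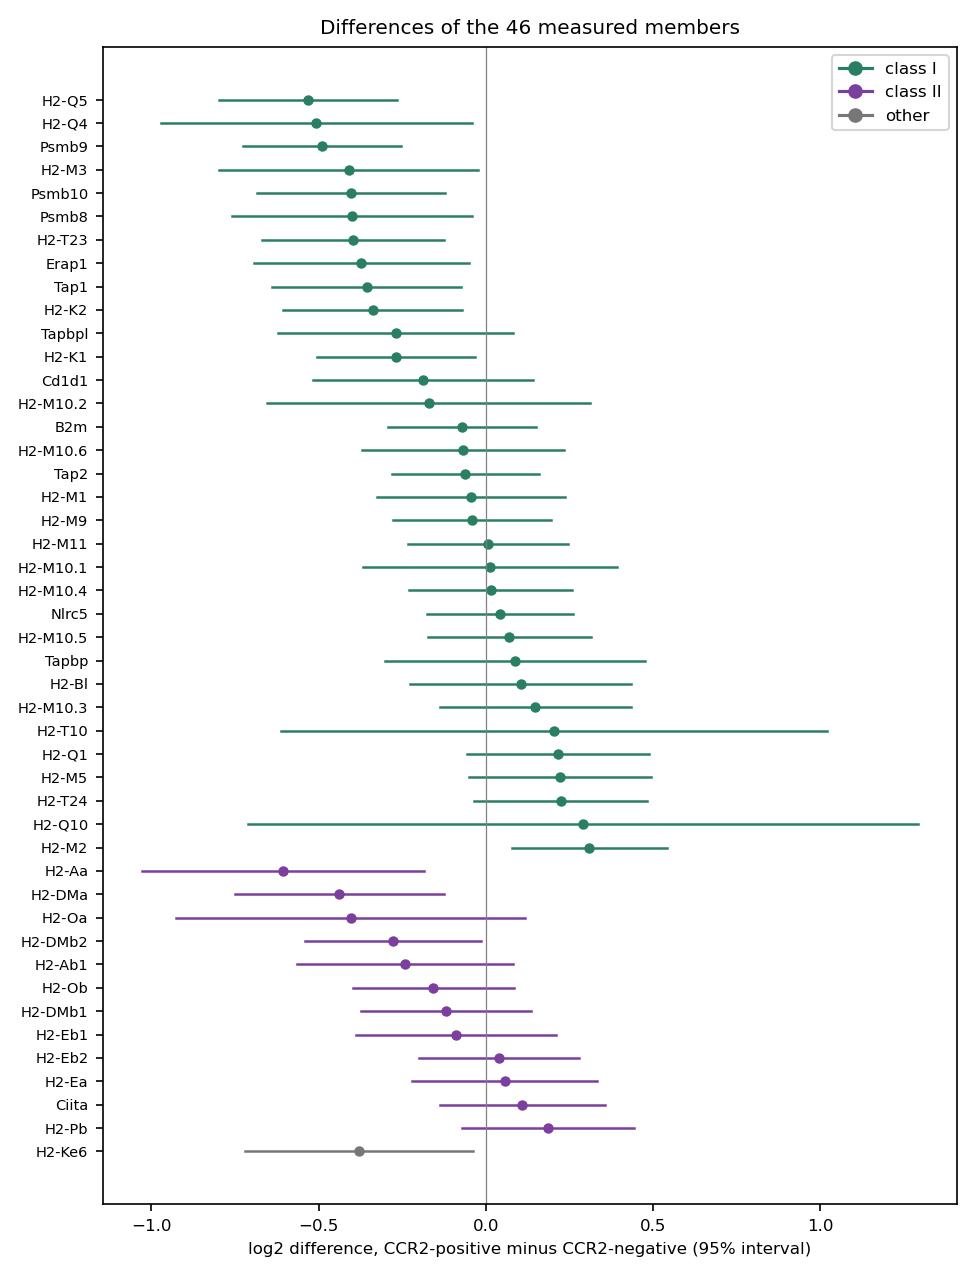
Log2 difference between CCR2-positive and CCR2-negative pools (points) with its 95% interval (lines) for the 46 measured members (rows), class I in green, class II in purple and H2-Ke6 in grey. The intervals of 11 class I members, 3 class II members and H2-Ke6 lie below 0, and that of H2-M2 lies above it.

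The start regions of these genes differ in exact matches to short motifs known from interferon and NF-kB control. RefSeq windows of 300 bases (250 before the start and 50 after it, build GRCm38.p6) were matched by symbol for 32 of the 46 members. They were searched on both strands for the interferon-stimulated response element (a pair of GAAA with any 2 bases between them), for GAANNGAAA, the spacing of the interferon response sequence of H2-K, for TTCNNNGAA, the gamma-activated site, for GGGATTCCC, the core of the NF-kB site of H2-K, and for the box CCAAT. Matches of different motifs may overlap. The 4 windows below are shown because H2-K1, H2-T23 and Psmb9 were lower in the CCR2-positive pools and B2m was not distinguishable. Capitals mark every match, each window runs 5′ to 3′ along the gene's strand, and for H2-K1 the first of 2 listed starts is shown.
H2-K1, chr17:34000298-34000597, minus strand: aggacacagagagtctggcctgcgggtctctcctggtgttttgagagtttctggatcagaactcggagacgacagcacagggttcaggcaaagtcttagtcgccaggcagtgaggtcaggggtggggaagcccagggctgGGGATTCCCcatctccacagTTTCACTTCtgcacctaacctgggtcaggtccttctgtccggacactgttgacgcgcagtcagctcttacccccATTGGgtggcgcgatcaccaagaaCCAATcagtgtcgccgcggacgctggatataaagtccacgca
H2-T23, chr17:36032652-36032951, minus strand: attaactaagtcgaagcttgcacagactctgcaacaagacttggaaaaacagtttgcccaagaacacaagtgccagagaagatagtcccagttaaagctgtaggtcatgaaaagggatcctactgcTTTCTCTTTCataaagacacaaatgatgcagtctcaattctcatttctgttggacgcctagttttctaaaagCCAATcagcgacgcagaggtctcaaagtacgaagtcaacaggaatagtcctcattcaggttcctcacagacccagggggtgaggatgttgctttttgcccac
Psmb9, chr17:34187281-34187580, minus strand: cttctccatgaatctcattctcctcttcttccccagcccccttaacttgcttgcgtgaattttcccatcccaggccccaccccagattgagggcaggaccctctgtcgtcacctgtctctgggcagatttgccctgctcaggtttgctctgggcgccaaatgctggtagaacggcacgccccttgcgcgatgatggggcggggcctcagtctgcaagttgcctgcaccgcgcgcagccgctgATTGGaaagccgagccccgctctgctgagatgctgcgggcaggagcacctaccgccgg
B2m, chr2:122147437-122147736, plus strand: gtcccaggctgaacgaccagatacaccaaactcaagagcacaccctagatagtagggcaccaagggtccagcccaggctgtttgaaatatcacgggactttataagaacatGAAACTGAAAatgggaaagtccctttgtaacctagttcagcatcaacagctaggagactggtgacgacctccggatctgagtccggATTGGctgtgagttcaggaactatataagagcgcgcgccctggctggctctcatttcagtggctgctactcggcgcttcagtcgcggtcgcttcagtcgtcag
The response element was found in H2-T23, Erap1 and B2m, and in 3.44% of all 32851 windows. H2-T23 and Erap1 were lower and B2m was not distinguishable. GAANNGAAA was found in H2-K1, H2-Q4, H2-M3, H2-Q10 and H2-M2, and in 7.52% of all windows. The NF-kB core was in H2-K1 alone among the members and in 0.353% of all windows. The gamma-activated site was in H2-M3, Psmb8, H2-DMb2 and H2-M11, and in 8.3% of all windows. CCAAT was in 27 of the 32 members and in 37.4% of all windows. Of the 13 members with a window that were lower at an unadjusted p under 0.05, 10 held it, and of the 19 others 17 did. Psmb9 and Tap1 start next to each other on opposite strands, so that 275 of the 300 bases of the Psmb9 window are also in that of Tap1 (chr17:34187306-34187605, plus strand). Both genes were lower, by -0.49 ± 0.10 and -0.36 ± 0.12. A match is a string of letters and no measured binding, and the lack of a match does not show that an element is absent.

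RefSeq places 38 of the 45 members it matched on chromosome 17. Psmb9, Tap1, Psmb8 and Tap2 follow one another there without another coding gene between them, with differences of -0.49, -0.36, -0.40 and -0.06. H2-DMa, H2-DMb2 and H2-DMb1 precede them directly, with differences of -0.44, -0.28 and -0.12. Psmb10, Erap1 and B2m lie on other chromosomes.

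Other genes of the class I route lay around 0. In the list of peptide supply and loading (constitutive subunits, activators, peptidases and chaperones), 0 of 19 measured genes were at an unadjusted p under 0.05, and the median difference was -0.02. All 19 lay at or above the median level, where 15.9% of all genes were at that p in either direction. Pdia3, a chaperone of the loading complex, differed by 0.18 ± 0.11, and Psme2, a subunit of the proteasome activator, by 0.20 ± 0.14. Psme3, of a nuclear activator, differed by 0.21 ± 0.13. Of the class I-like genes outside the H2 region, 3 of 9 were lower and 1 higher at that p, against 6.61% and 5.63% of all genes. Fcgrt, the neonatal Fc receptor, was at 7.49, 7.10 and 7.02 in CCR2-negative and 6.55, 6.50 and 6.63 in CCR2-positive pools, without overlap (difference -0.64 ± 0.14, 1.56-fold, adjusted p = 0.183, limma). Ulbp1, a ligand of the activating receptor NKG2D, differed by -0.55 ± 0.12, and Procr, the protein C receptor and a stem cell marker, by -0.37 ± 0.13. Mill1 differed by 0.30 ± 0.12.

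Of the 16 measured genes of the interferon route upstream, 3 were lower and 1 was higher at an unadjusted p under 0.05, with a median of -0.06. All 16 lay at or above the median level, where 11.3% of all genes were lower and 4.58% higher, so these counts are close to the background. Ifnar1, a chain of the type I interferon receptor, was at 8.44, 8.38 and 8.34 against 8.04, 8.0 and 7.82 (difference -0.43 ± 0.11, adjusted p = 0.202, limma). Irf2, a factor that binds the response element, was at 8.71, 8.13 and 8.38 against 7.82, 7.96 and 7.73 (difference -0.57 ± 0.15). Irf1, the activator of the same element, was at 7.16, 7.21 and 7.10 against 6.87, 6.83 and 7.03 (difference -0.25 ± 0.10). In these 3 genes no pools overlapped. Ifngr1, a chain of the interferon-gamma receptor, had the opposite sign, at 8.70, 8.64 and 8.89 against 8.97, 9.46 and 9.01 (difference 0.41 ± 0.15).

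Among class II genes, H2-Aa and the peptide exchange chains H2-DMa and H2-DMb2 were lower at an unadjusted p under 0.05, and the other chains and the regulator Ciita did not pass that p. These were 3 of the 12 measured members, with 0 higher, a share of 25% against 6.61% of all genes. None passed over all genes, and the smallest adjusted p was 0.274 (limma). The median difference was -0.14. Groups did not overlap for 4 members that were lower and 1 that was higher, against 7.88% and 10.8% of all genes. Of the 12 members, 7 lay under the median level of all genes. Of the 5 at or above it 2 were lower at an unadjusted p under 0.05, against 11.3% of all genes there. Of the 7 under it 1 was, against 1.92%.

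H2-Aa, the alpha chain of I-A, the class II molecule that C57BL/6 mice express, was at 6.52, 6.44 and 5.79 in the CCR2-negative and 5.60, 5.73 and 5.59 in the CCR2-positive pools. CCR2-negative replicate 3 lay close to the CCR2-positive pools, and replicates 1 and 2 stood well above (difference -0.61 ± 0.19, 1.52-fold, adjusted p = 0.274, limma). As each pool was left out, the difference ran from -0.83 to -0.47. Its partner chain H2-Ab1 was at 8.0, 7.76 and 7.83 against 7.76, 7.34 and 7.76. Those groups overlapped (difference -0.24 ± 0.14), and a second quantile normalization gave -0.16. The difference was -0.10 when replicate 2 of the CCR2-positive group was left out. H2-Eb1, the beta chain of I-E, was at 5.03, 4.74 and 4.88 against 4.93, 4.58 and 4.87, and H2-Ea at 4.21, 4.10 and 4.16 against 4.07, 4.13 and 4.43. Neither was distinguishable (differences -0.09 ± 0.13 and 0.06 ± 0.12), and each changed sign without 1 CCR2-positive pool. H2-Ea is not transcribed in C57BL/6 mice because of a deletion at its promoter, and its values lay under the 25th percentile of level in all pools. H2-Eb2 differed by 0.04 ± 0.10.

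H2-DMa, the alpha chain of the factor that exchanges the invariant chain fragment for peptide, was at 8.57, 8.44 and 8.40 against 8.20, 7.76 and 8.14. The groups did not overlap, and CCR2-positive replicate 2 was the lowest (difference -0.44 ± 0.14, 1.35-fold, adjusted p = 0.276, limma). H2-DMb2, a beta chain, was at 4.75, 4.48 and 4.48 against 4.23, 4.38 and 4.26 (difference -0.28 ± 0.11, adjusted p = 0.380, limma). H2-DMb2 kept an unadjusted p under 0.05 under 8 of the 12 alternatives in which it was tested, and its difference was -0.19 when replicate 1 of the CCR2-negative group was left out. H2-DMb1, the other beta chain, differed by -0.12 ± 0.11 with overlapping groups. Both beta chains lay under the 25th percentile of level. Of the chains of H2-DO, which inhibits H2-DM, H2-Oa differed by -0.40 ± 0.23 with overlapping groups. H2-Ob was at 5.05, 5.12 and 5.28 against 5.04, 4.94 and 5.00, just apart (difference -0.16 ± 0.11, and -0.09 without CCR2-negative replicate 3). H2-Pb, a gene of the H2-P locus, was at 4.08, 4.25 and 4.19 against 4.52, 4.28 and 4.27 (difference 0.19 ± 0.11, and 0.10 without CCR2-positive replicate 1). Ciita was at 6.64, 6.60 and 6.64 against 6.71, 6.89 and 6.61, a difference of 0.11 ± 0.11 with overlapping groups and an interval of -0.14 to 0.35. H2-Ke6, outside both classes, was at 8.75, 9.12 and 8.60 against 8.46, 8.30 and 8.57 (difference -0.38 ± 0.15, and -0.23 without CCR2-negative replicate 2).

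**Figure D4:**
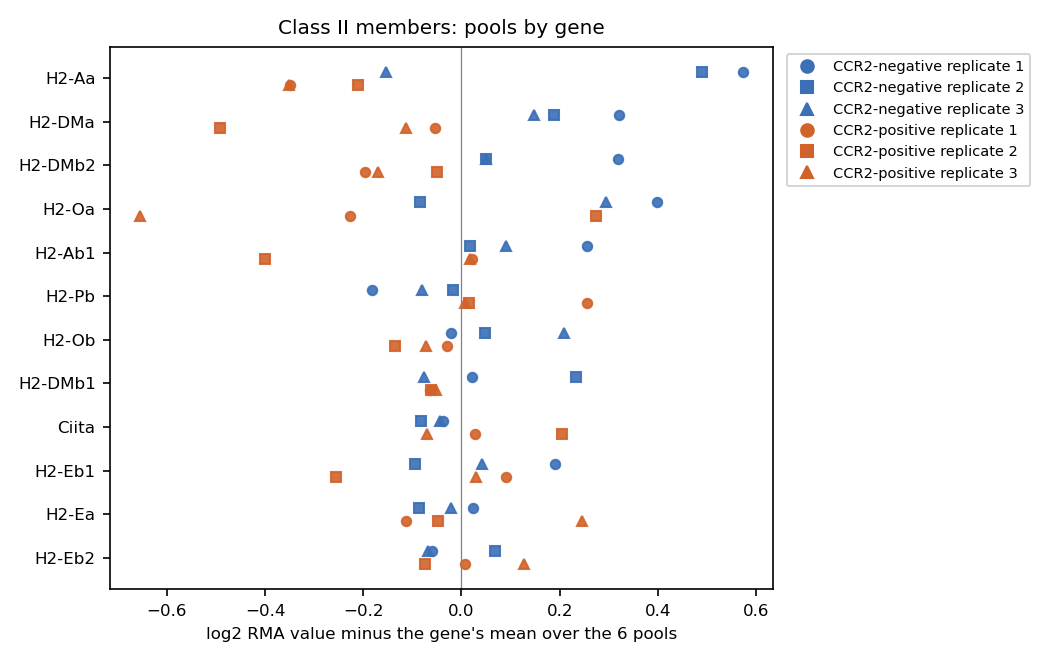
Log2 value of each pool minus the gene's mean over the 6 pools (horizontal axis) for the 12 class II members (rows), with CCR2-negative pools in blue, CCR2-positive pools in orange and 1 marker shape per replicate number. The colours separate with orange lower at H2-Aa, H2-DMa, H2-DMb2 and H2-Ob, and with orange higher at H2-Pb.

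Further genes of the class II route had differences of both signs. Of 17 measured genes 1 was lower and 2 were higher at an unadjusted p under 0.05, against 6.61% and 5.63% of all genes. The median was 0.03, as for all genes. Only 4 of the 17 lay under the median level. At or above that level 11.3% of all genes were lower at that p and 4.58% higher, with a median of -0.03. Ifi30, the thiol reductase of endosomes, was at 6.96, 7.19 and 6.81 against 7.28, 8.18 and 7.34, highest in CCR2-positive replicate 2 (difference 0.61 ± 0.23). Marchf8, a ubiquitin ligase that removes class II molecules from the surface, differed by 0.44 ± 0.15. Nfyc, a subunit of the factor that binds CCAAT, differed by -0.36 ± 0.14, and Creb1, which binds class II promoters, by -0.31 ± 0.14. The smallest adjusted p of these 4 genes was 0.310 (limma), that of Marchf8.

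In the marker lists of B cells, dendritic cells, monocytes and T cells, 0 genes were lower in the CCR2-positive pools at an unadjusted p under 0.05. Over all genes 6.61% were lower at that p, 5.63% were higher, and 44.0% had a difference below 0. In the B cell and plasma cell list 4 of 17 measured genes were lower and 13 higher, 0 and 2 of them at an unadjusted p under 0.05. Under the median level, where 14 of the 17 lay, 68.1% of all genes had a difference above 0, 1.92% were lower at that p and 6.68% higher. Its summed linear level was 780 to 876 in CCR2-negative and 777 to 858 in CCR2-positive pools, and Cd79a, a chain of the B cell receptor, differed by 0.10 ± 0.13. In the dendritic cell list 5 of 16 were lower and none was at that p, with summed levels of 1649 to 1829 and 1614 to 1719, and Itgax, which encodes CD11c, differed by 0.11 ± 0.16. Of 19 monocyte and macrophage genes 14 were higher, 3 at that p against 5.63% of all genes, and 10 lay under the median level. Their summed levels were 2426 to 3103 and 2656 to 4064. Csf1r, the receptor of macrophage growth factor, differed by 0.35 ± 0.13 and Adgre1, which encodes F4/80, by 0.38 ± 0.15, and 5 of the 19 genes had differences below 0. The part of such cells in the class II differences was not tested. Of 19 T cell and NK cell genes 15 were higher, 1 at that p, and 15 lay under the median level, with summed levels of 1072 to 1175 and 1002 to 1202. Of 14 endothelial and stromal genes 6 were lower, 2 at that p against 6.61% of all genes, with summed levels of 804 to 840 and 645 to 768. An array gives no true 0, so the absence of such cells cannot be read from these levels.

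Stem cell genes moved in the direction of the MHC genes. All 16 measured genes of that list were lower in the CCR2-positive pools, 11 at an unadjusted p under 0.05, with a median of -0.49. All 16 lay at or above the median level of all genes. There 56.1% of all genes had a difference below 0, and 11.3% were lower at that p. The mean over the list was 8.08, 7.84 and 7.78 in CCR2-negative and 7.50, 7.16 and 7.51 in CCR2-positive pools, with summed linear levels of 5185 to 6101 and 3463 to 4190. The mean over the 33 class I members was 6.64, 6.62 and 6.62 against 6.53, 6.48 and 6.55, and over the 12 class II members 5.78, 5.69 and 5.66 against 5.58, 5.53 and 5.54. CCR2-negative replicate 1 was the highest and CCR2-positive replicate 2 the lowest for all 3 of these means, for the MHC genes by small gaps. The 22 class I members at or above the median level kept that order. For the 5 such class II members CCR2-positive replicate 3 was the lowest, at 6.84 beside 6.95 for replicate 2. The part of the stem cell genes' shift in the difference of the MHC genes was not tested.

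**Figure D5:**
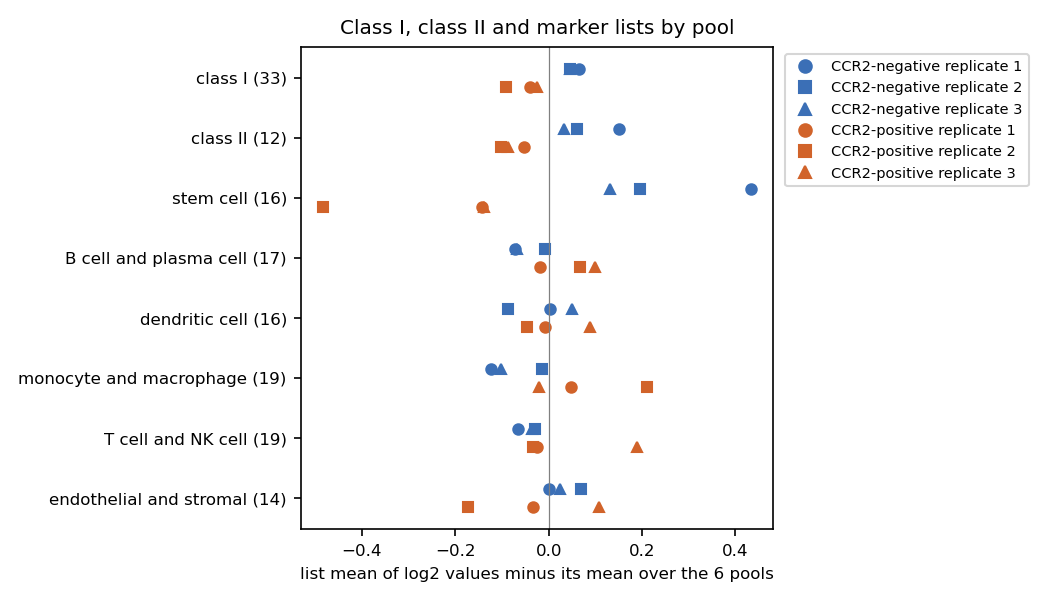
Mean log2 value over each list in each pool minus its mean over the 6 pools (horizontal axis), for class I, class II and 6 marker lists (rows, number of genes in brackets), with CCR2-negative pools in blue, CCR2-positive pools in orange and 1 marker shape per replicate number. The colours separate for class I, class II and stem cell genes, with orange lower, and mix for the other 5 lists.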

How the data were processed

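Transcripts were measured on 6 one-colour arrays, 3 per group. The authors deposited 1 table of log2 values for 41345 probe sets, made with RMA per the submitters' processing notes. The version and settings of RMA and the genome build: not given in the sources used here. Raw signals and detection calls were not analysed here. The array number limits the precision, with a median SE of 0.127 for a log2 difference. Equalised distributions make every difference relative to the other genes of an array.

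The platform annotation, which can be old, names 1 gene for 23521 probe sets, several for 1814 and none for 16010. The probe set with the highest mean over the 6 arrays was used per gene (22180 genes). Groups were taken from the sample titles and compared by limma's moderated two-sided test (limma 3.58.1, R 4.3.3) without covariates, with Benjamini-Hochberg adjustment over all genes and a threshold of 0.05. On simulated data for this comparison (22180 genes, 10 simulations, 200 changed genes each) the fit recovered 78.0% of genes changed by 1 on the log2 scale and 96.4% at 2. The largest difference of a member was -0.61 (H2-Aa), and changes of that size or smaller were not simulated, so their recovery is unknown. Of 176 symbols in 4 pathway and 6 marker lists, 162 were measured, 2 of them under another name. All members could be named, with pool values for those at an unadjusted p under 0.05, those without overlap and a set of core genes, and up to 4 genes per list by p. Members and lists were chosen with earlier results of these data known. The 14 alternatives were 2 filters on dim genes, 3 further normalizations, a block for replicate number, a trended and robust variance prior, averaging all probe sets of a gene, and each of the 6 pools left out.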

Additional observations from a re-analysis of the deposited data

How the results depend on the processing

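No member passed an adjusted p of 0.05 in limma under any of the 14 alternatives. The 11 class I members that were lower at an unadjusted p under 0.05 stayed below 0 under all of them, and so did the 3 class II members wherever they were tested (2 of them after the filters on dim genes). The class I count of 11 became 7 after a second quantile normalization and 6 to 11 as each pool was left out. The share of all genes lower at an unadjusted p under 0.05 was 5.53% and 4.79% to 7.11% in these fits. It was 6.61% in the main fit. The count of 1 higher class I member became 0 with a filter at the 25th percentile or the median of level, 2 after a second quantile normalization or cyclic loess, and 1 to 3 as each pool was left out. The class I median of -0.06 was -0.23 and -0.27 with these filters, which remove members by their level, and -0.10 to -0.023 without 1 pool. The class II median of -0.14 was -0.20 and -0.40 with the filters. Of all genes, 401 were higher at an unadjusted p under 0.05 with the filter at the median, where 11090 genes were tested. Without CCR2-positive replicate 1, 2 genes passed an adjusted p of 0.05, and 0 to 2 did over the 6 such fits. In the fits on 5 pools H2-Eb1 lay between -0.161 and 0.015, the last without CCR2-positive replicate 2, and H2-Ea between -0.052 and 0.127, the first without CCR2-positive replicate 3. The cause was not tested for the turned signs or for the counts under other normalizations.

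With the replicate number as a block, H2-DMb2 was no longer called, and 11 class I and 2 class II members were lower at an unadjusted p under 0.05, with 1636 genes lower and 1299 higher in all. Deviations of same-numbered pools correlated over genes at 0.03, 0.09 and 0.04, and those of differently numbered pools at -0.10 to 0.07. CCR2-positive replicates 1 and 2 correlated best with the CCR2-negative pool of their own number, and replicate 3 with CCR2-negative replicate 1. Such low values cannot settle whether the numbers mark pairs, and the main fit did not treat them as pairs. Members under the 25th percentile of level (9 class I and 4 class II) are limited by an unknown signal over background.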
